A study of Mus musculus with 31 samples.

Results

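Keratins are the intermediate filament proteins of epithelial cells. This account follows 8 keratin genes of mouse mammary gland, chosen by name but with earlier results of these data known: the luminal keratins Krt7, Krt8, Krt18 and Krt19 and the basal keratins Krt5, Krt14, Krt15 and Krt17, out of 22609 genes listed. Poly(A) RNA of mammary tissue without lymph nodes was sequenced on day 6 of pregnancy and on the day of parturition, less than 12 hours after delivery, in mice of a mixed 129SV, FVB/N and C57BL/6 background that carry from 0 to 4 functional copies of Stat5a and Stat5b, the adjacent genes for the transcription factors that prolactin activates in mammary epithelium. The study asks how the amount of STAT5 bears on mammary epithelium in pregnancy. Null mice (Stat5ab fl/fl;MMTV-Cre) lose both genes where Cre, driven by the MMTV promoter in a single transgenic line, is active, so their stroma keeps them. B mice (Stat5ab null/Stat5a-) keep 1 Stat5b allele and A mice (Stat5ab null/Stat5b-) keep 1 Stat5a allele. BB mice (Stat5a-/-) keep 2 Stat5b alleles, AB mice (Stat5ab +/null) keep 1 allele of each gene, and AABB mice are wild type with 4 alleles. In B, A, BB and AB the alleles are missing from every cell of the animal, so for these genotypes and Null the copy number and the place of the loss cannot be told apart.

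Each genotype has 3 listed samples on day 6. At parturition B has 3 and the remaining genotypes have 2, and the protocol speaks of 2 mice per genotype. The deposited tables hold 1 column per genotype and stage, the authors' mean over its samples, in FPKM (sequenced fragments relative to transcript length and library size). Hence the values below carry no SD, replicates cannot check any difference, no p-value is given, and for no pair of neighbouring levels can it be said whether they differ beyond the spread of samples. Within a stage the 6 columns were brought to a common scale by their median ratio, with factors from 0.916 to 1.07 on day 6 and from 0.794 to 1.13 at parturition. A gene counts as 2-fold higher or lower by its log2 ratio of scaled FPKM + 1. The sequencing depth is unknown. As a check of the labels, Stat5a was lowest in BB, at 3.67 against 33.6 in AABB on day 6 and 4.30 against 70.8 at parturition, but the columns labelled B and A still held 12.5 (Stat5a in B) and 10.6 (Stat5b in A) on day 6. On that day Null held 13.6 of Stat5a and 9.04 of Stat5b, A held 15.9 of Stat5a, and B held 12.3 of Stat5b. These transcripts thus set Null, B and A little apart on day 6. Directions for B and A are directions for the columns labelled B and A. B and A samples of a stage have numbered tags in common, marked L in B and R in A, and whether L and R of 1 number come from 1 mouse is not given.

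A keratin filament is built from pairs of 1 type I and 1 type II chain, so the genes come as partners. In the mammary bilayer, the luminal cells that line the duct and make milk form filaments of KRT8 with KRT18, together with KRT7 (type II) and KRT19 (type I). The basal or myoepithelial cells, which contract to eject milk and touch the basement membrane, use KRT5 with KRT14, together with the type I chains KRT15 and KRT17. KRT5 and KRT14 are also the keratins of the basal layer of skin, KRT15 is known from stem cells of the hair follicle bulge, and KRT17 is induced in stressed or wounded skin.

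The genes lie in clusters. By the RefSeq annotation of GRCm38.p6, Krt7, Krt8 and Krt5 lie on chromosome 15, where Krt18 is the direct neighbour of Krt8 although it is a type I gene, and Krt14, Krt15, Krt17 and Krt19 lie on chromosome 11, with Krt19 next to Krt15. Of the 8 genes, 5 have an entry in the RefSeq promoter table of that build: Krt7, Krt8, Krt18, Krt5 and Krt14. The 250 bases before the transcription start are shown for the neighbours Krt8 and Krt18, whose ratio to each other varied little in these data, and for Krt7, the other luminal keratin with an entry, whose pattern lay farther from that of Krt18 (root mean square difference of log2 ratios to AABB 1.00, against 0.17 between Krt8 and Krt18). They are written 5′ to 3′ on the gene's strand, with matches to the AP-2 letters GCCNNNGGC and the SP1 letters GGGCGG, on either strand, in capitals. They are Krt7 (chr15:101412153-101412402, plus strand), Krt8 (chr15:102004343-102004592, minus strand) and Krt18 (chr15:102027966-102028215, plus strand).
Krt7: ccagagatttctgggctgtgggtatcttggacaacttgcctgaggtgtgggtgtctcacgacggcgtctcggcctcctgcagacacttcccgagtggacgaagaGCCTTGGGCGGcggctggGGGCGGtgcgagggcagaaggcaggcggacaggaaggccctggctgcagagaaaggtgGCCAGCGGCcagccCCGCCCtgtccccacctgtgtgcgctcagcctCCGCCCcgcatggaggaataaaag
Krt8: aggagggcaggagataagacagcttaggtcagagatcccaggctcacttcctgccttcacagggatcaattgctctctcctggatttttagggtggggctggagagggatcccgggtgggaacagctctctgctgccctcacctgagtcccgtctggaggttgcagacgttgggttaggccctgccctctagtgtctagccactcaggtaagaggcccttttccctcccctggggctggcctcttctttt
Krt18: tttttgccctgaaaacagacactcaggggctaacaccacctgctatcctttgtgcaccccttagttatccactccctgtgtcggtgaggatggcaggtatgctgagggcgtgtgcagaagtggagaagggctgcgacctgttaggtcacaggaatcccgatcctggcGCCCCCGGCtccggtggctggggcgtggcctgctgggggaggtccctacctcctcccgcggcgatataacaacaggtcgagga
Krt7 held 2 AP-2 matches and 4 SP1 matches, of which an AP-2 and an SP1 match overlap, Krt18 held 1 AP-2 match, and Krt8, Krt5 and Krt14 held neither. Among 32841 promoters of the same length in the table, 13.7% held the AP-2 letters and 32.7% the SP1 letters. The STAT5 letters TTCNNNGAA, present in 7.02% of these promoters, the AP-1 letters TGANTCA (6.75%) and the TATA letters TATAAA (12.4%) had no match in any of the 5 keratin promoters. A match is a string of letters and not a binding site, and its absence says only that these letters are not in this window.

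On day 6 of pregnancy the basal keratins set the genotypes apart, and the luminal keratins did so much less. Krt5, Krt14, Krt15 and Krt17 stood higher in B, A, BB and AB than in AABB, by log2 ratios of 0.80 to 2.40, while Null stayed closer to AABB. Their summed level was 126 in Null, 247 in B, 328 in A, 324 in BB, 304 in AB and 106 in AABB. The summed level of the 4 luminal keratins was 1232 in Null, 1085 in B, 937 in A, 938 in BB, 595 in AB and 1177 in AABB. In tissue RNA, fewer cells of a type and less RNA per cell cannot be told apart, here and below.

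Krt5, the basal type II chain, stood at 41.8 in Null, 71.2 in B, 101 in A, 126 in BB, 111 in AB and 40.6 in AABB on day 6. Its partner Krt14 stood at 45.1 in Null, 80.6 in B, 102 in A, 84.0 in BB, 80.8 in AB and 37.5 in AABB. For both genes Null and AABB were the lowest columns. The share of all genes with that order is not given, here or below. Krt15 stood at 10.3 in Null, 47.1 in B, 64.6 in A, 65.5 in BB, 52.1 in AB and 11.6 in AABB. Krt17 stood at 28.9 in Null, 47.7 in B, 60.4 in A, 47.8 in BB, 59.7 in AB and 16.4 in AABB. Krt15 had the widest range of the 8 genes at this stage, 6.36-fold from its lowest to its highest column. Against AABB, Krt15 had log2 ratios of 1.93 in B, 2.38 in A, 2.40 in BB and 2.07 in AB, against -0.16 in Null. Of the basal keratins, Krt17 had the highest ratio in Null (0.79).

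Of the 4 basal keratins, 3 were 2-fold higher than AABB in B, all but Krt5 (log2 ratio 0.80, or 1.83 when columns are scaled to epithelial junction genes). All 4 were so in A, BB and AB, and 0 in Null. Over all 13367 genes compared at this stage, 7.56% were 2-fold higher in B, 7.01% in A, 5.12% in BB, 6.78% in AB and 2.21% in Null. The median log2 ratio of the basal keratins was 1.29 in B, 1.62 in A, 1.55 in BB, 1.62 in AB and 0.15 in Null, beside medians over all genes between -0.02 and 0.04. With FPKM as deposited, Krt14 in AB was within 2-fold (0.91), and the other calls on basal keratins held.

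**Figure D1:**
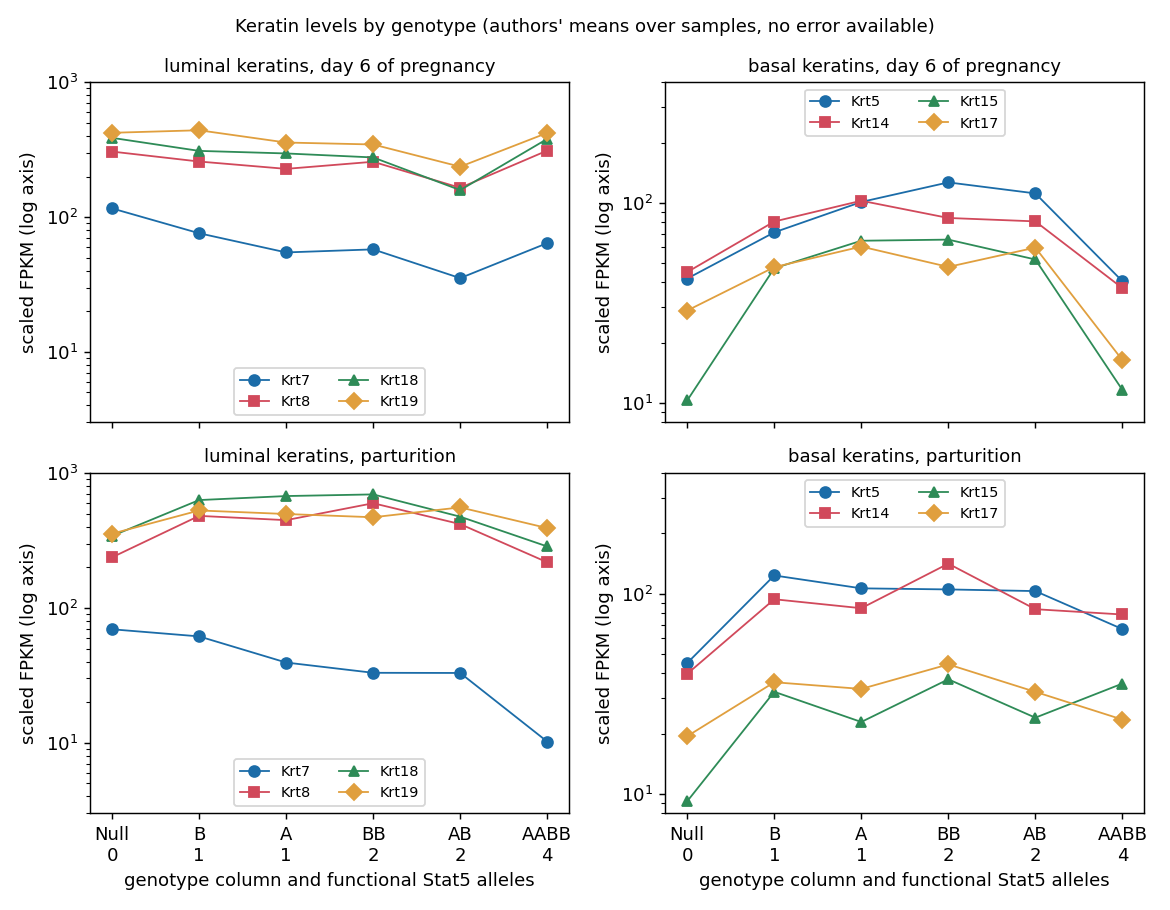
Scaled FPKM (log axis, whose range differs between the luminal and the basal panels) of the 4 luminal keratins (left) and the 4 basal keratins (right) on day 6 of pregnancy (top) and at parturition (bottom), by genotype column with its number of functional Stat5 alleles; each point is the authors' mean and has no error. On day 6 the basal keratins are lowest in Null and AABB, and at parturition Krt7 is highest in Null (69.5) and lowest in AABB (10.2).

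Among luminal keratins on day 6, Krt18 stood at 387 in Null, 309.9 in B, 297 in A, 277 in BB, 159 in AB and 380.1 in AABB. Its type II partner Krt8 stood at 306 in Null, 258 in B, 228 in A, 257 in BB, 165 in AB and 312 in AABB. Krt19, a type I chain that lacks the tail domain of other keratins, stood at 422 in Null, 441 in B, 357 in A, 346 in BB, 237 in AB and 421 in AABB. Krt8, Krt18 and Krt19 were each lowest in AB, and their log2 ratios of Null to AABB were -0.02, 0.03 and 0.00. Krt7, a type II chain of ducts and simple glands, stood at 116 in Null, 75.9 in B, 54.7 in A, 57.6 in BB, 35.2 in AB and 64.1 in AABB. It was the single luminal keratin whose Null level stood well apart from AABB, with a log2 ratio of 0.85, within 2-fold.

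Of the 4 luminal keratins, 1 was 2-fold lower than AABB in AB, Krt18 (log2 ratio -1.26), where 5.01% of all genes were 2-fold lower. In Null, B, A and BB 0 of 4 differed 2-fold in either direction, where 4.3%, 12.7%, 12.5% and 8.72% of all genes did. The luminal median log2 ratio was 0.01 in Null, -0.10 in B, -0.30 in A, -0.28 in BB and -0.88 in AB, and with columns scaled to 10 epithelial junction genes it was 0.41 in Null, 0.95 in B, 0.84 in A, 0.31 in BB and 0.05 in AB, so the sign in B, A, BB and AB depended on the scaling. That scaling shifts the median of all genes up by 0.32 to 0.98 on day 6. With that scaling Krt7 passed 2-fold higher in Null (1.23) and B (1.28), Krt17 in Null (1.15), and Krt19 and Krt5 in B (1.12 and 1.83), and Krt18 in AB came within 2-fold (-0.32). Without scaling, Krt7, Krt8 and Krt19 also passed 2-fold lower in AB (-1.02, -1.10 and -1.01). Beside the AB values stands its skeletal muscle RNA. The 8 skeletal muscle genes listed summed to 6093 in AB and to between 28.5 and 432 in the other columns of that stage, and the part of muscle in the AB keratin levels was not tested.

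**Figure D2:**
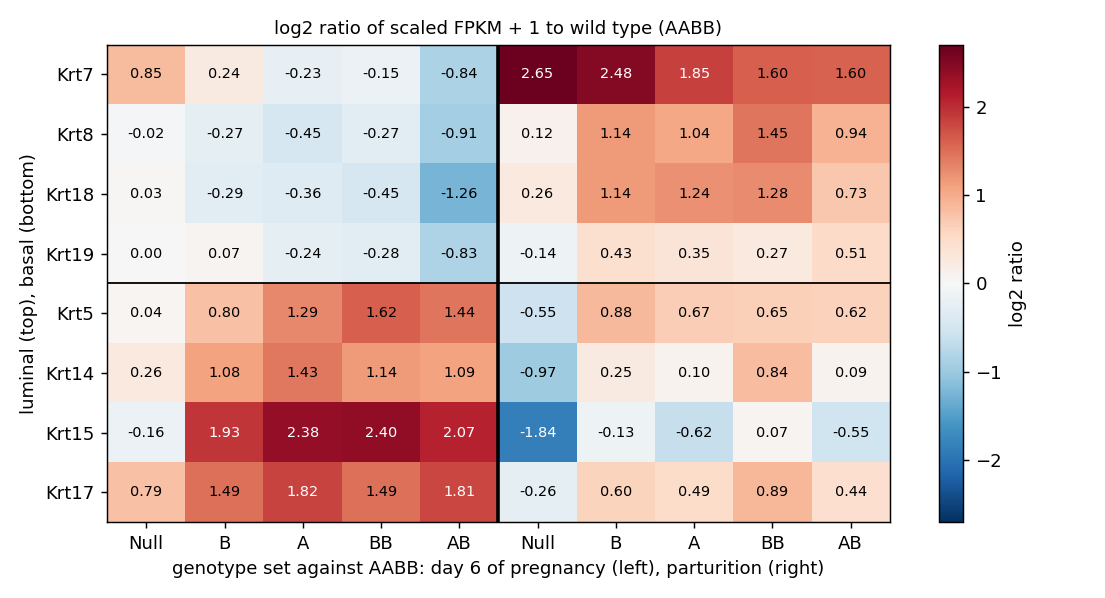
Log2 ratio of scaled FPKM + 1 of each genotype to AABB for the 4 luminal keratins (top rows) and the 4 basal keratins (bottom rows), on day 6 of pregnancy (left 5 columns) and at parturition (right 5 columns), each a ratio of 2 means without error. The 2-fold differences lie mostly in the basal rows on day 6 (up to 2.40 for Krt15 in BB) and in the luminal rows at parturition (up to 2.65 for Krt7 in Null); scaled to epithelial junction genes, which moves the median of all genes up by 0.32 to 0.98 on day 6, every negative luminal ratio of that stage is positive except Krt18 in AB (-0.32).

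At parturition the classes changed places. Krt7, Krt8 and Krt18 were higher in B, A, BB and AB than in AABB. In Null Krt7 stood well above AABB (log2 ratio 2.65), while Krt8 (0.12) and Krt18 (0.26) lay near it. The basal keratins differed less, except that they were lowest in Null. The luminal sum was 1005.5 in Null, 1706 in B, 1663 in A, 1799.8 in BB and 1486 in AB, against 907 in AABB. The basal sum was 113 in Null, 286 in B, 247 in A, 328 in BB and 243 in AB, against 204 in AABB. Beside these stands the milk transcript of wild type: the 7 milk protein genes listed summed to 1812 scaled FPKM in Null, 5174 in B, 16942 in A, 319578 in BB and 316534 in AB, against 912327 in AABB. The 8 keratins made up 0.286% of all FPKM in Null, 0.476% in B, 0.424% in A, 0.267% in BB and 0.229% in AB, against 0.0741% in AABB.

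Krt7 was ordered by allele number at parturition. It stood at 69.5 in Null, 61.5 in B, 39.4 in A, 33.0 in BB, 32.9 in AB and 10.2 in AABB, from no allele to 4. Its log2 ratios to AABB were 2.65 in Null, 2.48 in B, 1.85 in A, 1.60 in BB and 1.60 in AB, and all 5 also passed 2-fold without scaling and with scaling to epithelial junction genes. B and Null, and BB and AB, lay close together in that order, and whether such neighbours differ beyond the spread of samples is not known. The range of Krt7 was 6.81-fold at this stage, the widest of the 8 genes.

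Krt8 stood at 238 in Null, 483 in B, 449 in A, 599 in BB, 419 in AB and 218 in AABB at parturition. Krt18 stood at 343 in Null, 632 in B, 677 in A, 696 in BB, 476 in AB and 286 in AABB. In contrast to Krt7, both had Null and AABB as their lowest columns, with the 1-allele and 2-allele columns above. Krt19 stood at 356 in Null, 529 in B, 498 in A, 471 in BB, 558 in AB and 392 in AABB, a range of 1.57-fold, the narrowest of the 8 genes.

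Of the 4 luminal keratins at parturition, Krt7, Krt8 and Krt18 were 2-fold higher than AABB in B, A and BB, and Krt7 alone in AB and in Null. Over all 13061 genes compared, 18.2% were 2-fold higher in B, 17.3% in A, 8.07% in BB, 10.2% in AB and 19.1% in Null. The luminal median was 1.14 in B, 1.14 in A, 1.37 in BB, 0.83 in AB and 0.19 in Null, beside medians over all genes from 0.04 to 0.11. Scaled to epithelial junction genes, Krt8 and Krt18 came within 2-fold in B (0.82 and 0.82) and A (0.78 and 0.99) and stayed past it in BB (1.36 and 1.18).

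Krt14 stood at 39.8 in Null, 93.8 in B, 84.6 in A, 141 in BB, 83.7 in AB and 78.7 in AABB at parturition. Krt5 stood at 45.0 in Null, 123 in B, 106 in A, 105 in BB, 103 in AB and 66.6 in AABB. Both were lowest in Null, and for Krt5 AABB came next, whereas Krt14 in AABB lay near A and AB. Krt15 stood at 9.18 in Null, 32.3 in B, 22.9 in A, 37.3 in BB, 24.0 in AB and 35.5 in AABB. Krt17 stood at 19.4 in Null, 36.1 in B, 33.4 in A, 44.3 in BB, 32.3 in AB and 23.5 in AABB. Only Krt15 in Null was 2-fold lower than AABB (log2 ratio -1.84), where 10.7% of all genes were so, and Krt14 in Null lay just inside (-0.97). No basal keratin differed 2-fold from AABB in B, A, BB or AB, where 28.3%, 27.3%, 13.4% and 15.7% of all genes did in either direction. The basal median was -0.76 in Null, 0.42 in B, 0.30 in A, 0.74 in BB and 0.27 in AB. In AB it changed sign, to -0.09, when columns were scaled to epithelial junction genes. Without scaling Krt5 and Krt17 passed 2-fold higher in B (1.38 and 1.08), Krt5 in A (1.13), Krt14 and Krt17 in BB (1.14 and 1.18), and Krt8 in AB (1.17), with the median of all genes 0.23 to 0.53 above 0.

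The luminal to basal ratio, the summed FPKM of Krt7, Krt8, Krt18 and Krt19 over that of Krt5, Krt14, Krt15 and Krt17, is formed within a column and needs no scaling. On day 6 it was 9.77 in Null, 4.40 in B, 2.85 in A, 2.90 in BB, 1.96 in AB and 11.1 in AABB. Null and AABB were thus close together and far above the other columns, whose ratios were lower than that of AABB by log2 differences of -1.33 in B, -1.96 in A, -1.94 in BB and -2.50 in AB, against -0.18 in Null. At parturition it was 8.87 in Null, 5.97 in B, 6.73 in A, 5.49 in BB, 6.11 in AB and 4.44 in AABB. There AABB, which had the highest ratio on day 6, had the lowest, and Null had the highest. Null exceeded AABB by a log2 difference of 1.00 by sums and 1.64 by geometric means of FPKM + 1. B, A, BB and AB lay between, with log2 differences from AABB of 0.43, 0.60, 0.31 and 0.46.

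The stages were deposited as separate tables, so a ratio within a column is the quantity that can be set side by side between them. From day 6 to parturition the ratio at parturition was 0.908 of that on day 6 in Null, 1.36 in B, 2.36 in A, 1.89 in BB, 3.12 in AB and 0.400 in AABB. Null kept nearly the same ratio at both stages, the ratio of AABB was lower at parturition, and that of B, A, BB and AB was higher. These are different mice, and each ratio has no replicate check.

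**Figure D3:**
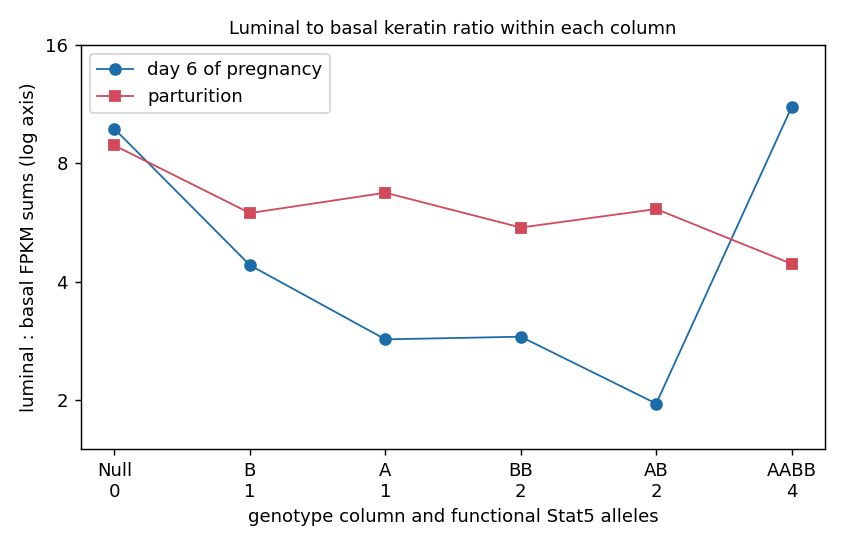
Ratio of the summed FPKM of the 4 luminal keratins to that of the 4 basal keratins within each column (log axis), for day 6 of pregnancy and parturition, by genotype with its number of functional Stat5 alleles; each point comes from 1 column of means and has no error. On day 6 Null (9.77) and AABB (11.1) lie above the other genotypes (1.96 to 4.40), and at parturition all 6 lie between 4.44 and 8.87.

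Ratios between single keratins of a column describe the partners. Krt8 over Krt18 kept to a narrow span, 0.768 to 1.04 over the 6 columns of day 6 and 0.662 to 0.881 at parturition, while their levels spanned up to 2.74-fold. Krt5 over Krt14 ranged from 0.883 in B to 1.51 in BB on day 6 and from 0.743 in BB to 1.32 in B at parturition, so BB was the highest column on day 6 and the lowest at parturition. Krt15 over Krt14 was 0.228 in Null, 0.584 in B, 0.631 in A, 0.779 in BB, 0.645 in AB and 0.310 in AABB on day 6, that is, Krt15 differed more between genotypes than its class as a whole. At parturition the same ratio was 0.231 in Null, 0.345 in B, 0.270 in A, 0.264 in BB, 0.287 in AB and 0.451 in AABB, with AABB the highest column.

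Krt7 over Krt8 compares the type II chains of luminal cells. On day 6 it was 0.379 in Null, 0.294 in B, 0.240 in A, 0.224 in BB, 0.214 in AB and 0.206 in AABB. At parturition it was 0.292 in Null, 0.128 in B, 0.0878 in A, 0.0551 in BB, 0.0786 in AB and 0.0467 in AABB. Null was highest and AABB lowest at both stages, and at both the order followed the number of alleles. On day 6 the Krt7 level itself did not follow it. Over all 8 genes, the type II sum (Krt5, Krt7, Krt8) over the type I sum (the other 5) was 0.519 in Null, 0.438 in B, 0.435 in A, 0.538 in BB, 0.530 in AB and 0.480 in AABB on day 6, and 0.459 in Null, 0.504 in B, 0.451 in A, 0.530 in BB, 0.473 in AB and 0.362 in AABB at parturition.

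**Figure D4:**
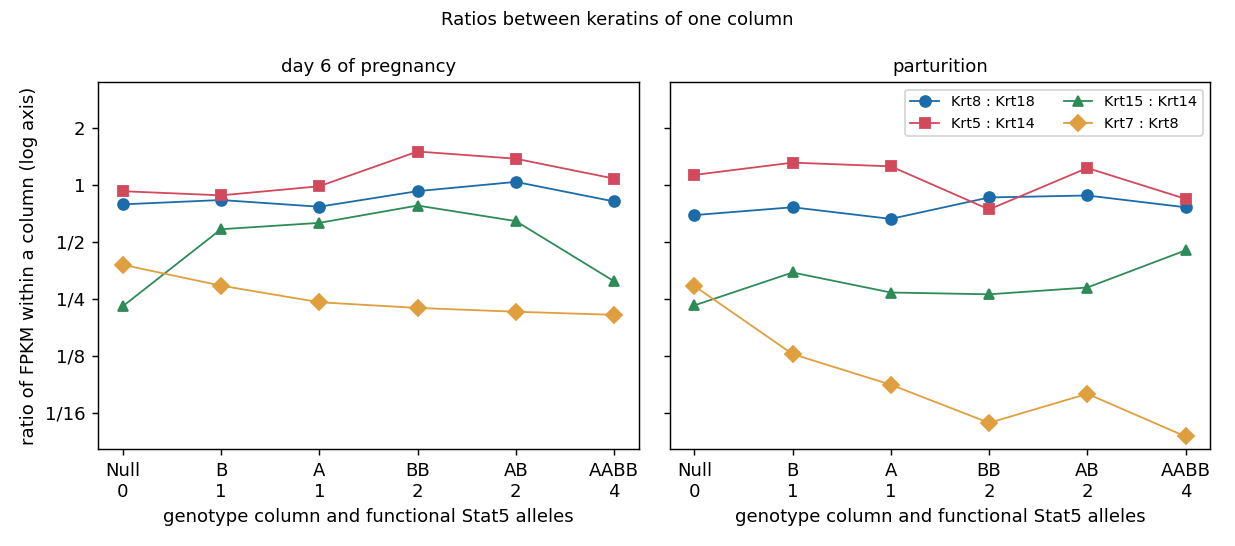
Ratios of FPKM between keratins of 1 column (log axis) on day 6 of pregnancy (left) and at parturition (right), by genotype with its number of functional Stat5 alleles; each point comes from means and has no error. Krt8 to Krt18 stays between 0.662 and 1.04, while Krt7 to Krt8 is highest in Null (0.379 and 0.292) and lowest in AABB (0.206 and 0.0467).

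Comparisons among B, A, BB and AB bear on the kind and number of alleles left. The column labelled A against the column labelled B, 1 Stat5a against 1 Stat5b allele, had 0 of 8 keratins past 2-fold at either stage, where 0.382% of all genes on day 6 and 0.704% at parturition were past it. On day 6 all 4 basal keratins stood higher in A, with log2 ratios of 0.34 to 0.50, and the luminal ones had ratios of -0.47 to -0.06. AB against BB, the 2-allele columns, also had 0 of 8 at either stage (2.72% and 1.78% of all genes). The luminal ratios of AB against BB on day 6 lay between -0.80 (Krt18) and -0.55 (Krt19). BB against B, 2 Stat5b alleles against 1, had 0 of 8 past 2-fold (6.46% and 7.86% of all genes), with Krt5 on day 6 (0.82) and Krt7 at parturition (-0.88) farthest from 0. At parturition Krt7 in BB against B passed 2-fold lower without scaling (-1.07), and Krt14 in AB against BB did so when scaled to epithelial junction genes (-1.01).

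Against Null, the column with no allele, 1 allele went with more basal keratin at both stages. On day 6, Krt15 was 2-fold higher in B (2.09) and all 4 basal keratins in A (1.04 to 2.54), where 6.42% and 6.08% of all genes were 2-fold higher. No luminal keratin passed in B, where 10.4% of all genes did in either direction, and Krt7 was 2-fold lower in A (-1.07), where 4.67% of all genes were. At parturition Krt5, Krt14 and Krt15 were 2-fold higher in B (1.43, 1.22 and 1.71), as was Krt8 (1.02), where 2.72% of all genes were so. The same 3 basal keratins were 2-fold higher in A (1.22, 1.07 and 1.23), where 3.51% of all genes were so, and no luminal keratin passed in either direction, where 6.69% of all genes did. Scaled to epithelial junction genes, Krt7 in A on day 6 (-0.34) and, at parturition, Krt5, Krt14 and Krt8 in B (0.81, 0.59 and 0.38) and Krt5, Krt14 and Krt15 in A (0.66, 0.51 and 0.70) came within 2-fold. Without scaling Krt7 in A did so on day 6 (-0.93). The epithelial scaling also put Krt5, Krt14 and Krt17 in B past 2-fold higher on day 6 (1.40, 1.47 and 1.34) and Krt7 in A past 2-fold lower at parturition (-1.37). These comparisons share the Null column, and those with AABB share the AABB column.

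Other genes listed as markers of the same cells give the setting, and not all of them are particular to those cells. Of 13 other basal or myoepithelial genes, 3 in B, 4 in A, 3 in BB and 6 in AB were 2-fold higher than AABB on day 6, and 0 in Null, where 7.56%, 7.01%, 5.12%, 6.78% and 2.21% of all genes were. Their medians were 0.72 in B, 0.77 in A, 0.84 in BB, 0.88 in AB and 0.22 in Null, below those of the basal keratins except in Null. Acta2, the smooth muscle actin of myoepithelium and of blood vessels, stood at 313 in Null, 456 in B, 481 in A, 407 in BB, 419 in AB and 226 in AABB. Cnn1, a calponin of smooth muscle and myoepithelium, had log2 ratios of 0.66 in Null, 0.91 in B, 0.98 in A, 0.99 in BB and 0.57 in AB. Tagln had log2 ratios of 0.02 in Null, 0.40 in B, 0.44 in A, 0.15 in BB and 0.29 in AB. Those of Sparc were 0.22 in Null, 0.40 in B, 0.62 in A, 0.87 in BB and 1.22 in AB. Trp63, which encodes the p63 regulator of basal epithelial identity and is named here after its values were seen, stood at 3.76 in Null, 9.96 in B, 13.1 in A, 10.3 in BB, 11.4 in AB and 3.45 in AABB on day 6, so that Null and AABB were its lowest columns too. Not all of the list had that order. Itgb4, also named after its values were seen, was lower than AABB in B and A (-0.61 and -0.76). At parturition Trp63 stood at 8.12 in Null, 12.7 in B, 14.2 in A, 5.87 in BB, 8.04 in AB and 4.05 in AABB. There the basal list had 1 gene 2-fold higher and 2 lower in Null, and 4, 3, 2 and 5 higher in B, A, BB and AB, with 1 lower in A. The gene higher in Null was Sparc (1.81). Sparc was also 2-fold higher in B (1.52), A (1.49), BB (1.64) and AB (1.46), as the fibroblast genes were at that stage. Over all genes, 19.1% in Null, 18.2% in B, 17.3% in A, 8.07% in BB and 10.2% in AB were 2-fold higher there. The share 2-fold lower was 10.7% in Null and 10% in A.

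Epithelial junction genes had medians below 0 on day 6, as the luminal keratins did in B, A, BB and AB. Of 10 of them, 2 in Null, 6 in B, 7 in A, 2 in BB and 6 in AB were 2-fold lower than AABB, and 1 each in Null, B and A was 2-fold higher, with medians of -0.64 in Null, -1.20 in B, -1.20 in A, -0.76 in BB and -1.18 in AB. Over all genes on day 6, 2.09% in Null, 5.18% in B, 5.54% in A, 3.6% in BB and 5.01% in AB were 2-fold lower. The share 2-fold higher was 2.21% in Null, 7.56% in B, 7.01% in A, 5.12% in BB and 6.78% in AB. Epcam, a luminal adhesion gene, stood at 111 in Null, 114 in B, 122 in A, 133 in BB, 103 in AB and 259 in AABB, and Cdh1, which encodes E-cadherin, at 59.1 in Null, 33.1 in B, 30.7 in A, 58.4 in BB, 48.9 in AB and 78.6 in AABB. At parturition the junction median was -0.59 in Null, 0.25 in B, 0.44 in A, 0.16 in BB and 0.33 in AB. Of 12 other luminal genes, 3 in Null, 3 in B, 2 in A, 1 in BB and 3 in AB were 2-fold lower on day 6, and 3 in Null, 2 in B, 2 in A, 2 in BB and 1 in AB were 2-fold higher. At parturition 4 in Null, 5 in B, 5 in A, 4 in BB and 4 in AB were 2-fold higher, and 3 in Null, 3 in B, 3 in A, 1 in BB and 2 in AB were 2-fold lower. Over all genes at parturition, 19.1% in Null, 18.2% in B, 17.3% in A, 8.07% in BB and 10.2% in AB were 2-fold higher. The share 2-fold lower was 10.7% in Null, 10.1% in B, 10% in A, 5.37% in BB and 5.45% in AB. Elf5, the alveolar transcription factor, stood at 66.9 in Null, 126 in B, 185 in A, 725 in BB, 463 in AB and 1085 in AABB there. Foxa1, a transcription factor of hormone-sensing luminal cells that is named after its values were seen, stood at 46.9 in Null, 25.3 in B, 16.7 in A, 3.66 in BB, 4.39 in AB and 1.01 in AABB. The list thus held genes that were lowest in Null, such as Elf5. Foxa1 was the single gene of the list that was, like Krt7, highest in Null and lowest in AABB, but Esr1 missed that order narrowly. Esr1, also named after its values were seen, stood at 12.7 in Null, its highest column, and at 4.79 in both BB and AABB, its lowest.

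Of the 14 listed genes of keratin anchorage and regulation in the tables, 13 were compared on day 6 and 12 at parturition. Of these, 1 in Null, 3 in B, 3 in A, 1 in BB and 1 in AB were 2-fold higher on day 6, and 1 each in B and A was 2-fold lower. That was Jup, the plakoglobin of desmosomes, at 53.7 in Null, 15.6 in B, 12.7 in A, 49.9 in BB, 53.5 in AB and 51.7 in AABB. Over all genes on day 6, 2.21% in Null, 7.56% in B, 7.01% in A, 5.12% in BB and 6.78% in AB were 2-fold higher. The share 2-fold lower was 5.18% in B and 5.54% in A. At parturition 4 in Null, 5 in B, 5 in A, 1 in BB and 3 in AB were 2-fold higher, and 1 in B and 2 in A were 2-fold lower. Over all genes at that stage, 19.1% in Null, 18.2% in B, 17.3% in A, 8.07% in BB and 10.2% in AB were 2-fold higher, and 10.1% in B and 10% in A were 2-fold lower.

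Markers of other cell types differed between the columns too, each list in its own way. On day 6 the 8 fibroblast genes summed to 1884 in Null, 4576 in B, 4286 in A, 9038 in BB, 8309 in AB and 2143 in AABB, and 1 of them in Null, 6 in B, 5 in A, 8 in BB and 8 in AB were 2-fold higher, with 1 in A 2-fold lower. Over all genes on day 6, from 2.21% in Null to 7.56% in B were 2-fold higher, and 5.54% in A were 2-fold lower. The 4 mast cell genes summed to 40.9 in Null, 429 in B, 410.3 in A, 331 in BB, 250.2 in AB and 12.0 in AABB, and the 4 B lymphocyte genes to 14.3 in Null, 155 in B, 135 in A, 7.14 in BB, 6.14 in AB and 3.28 in AABB. At parturition the fibroblast genes, 8 of 8 higher in all 5 genotypes, summed to 2197 in Null, 1936 in B, 1566 in A, 2348 in BB, 2340 in AB and 397 in AABB, and so did not follow the basal keratins there, which were lowest in Null. Over all genes at parturition, from 8.07% in BB to 19.1% in Null were 2-fold higher. The 8 adipocyte genes summed to 48226 in Null, 24571 in B, 25152 in A, 22766 in BB, 30057 in AB and 20779.6 in AABB on day 6. At parturition the skeletal muscle genes summed to 3188 in Null, 1936 in B, 1956 in A, 15.0 in BB, 12.2 in AB and 189.8 in AABB. The part of these cell types in the keratin levels was not tested.

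**Figure D5:**
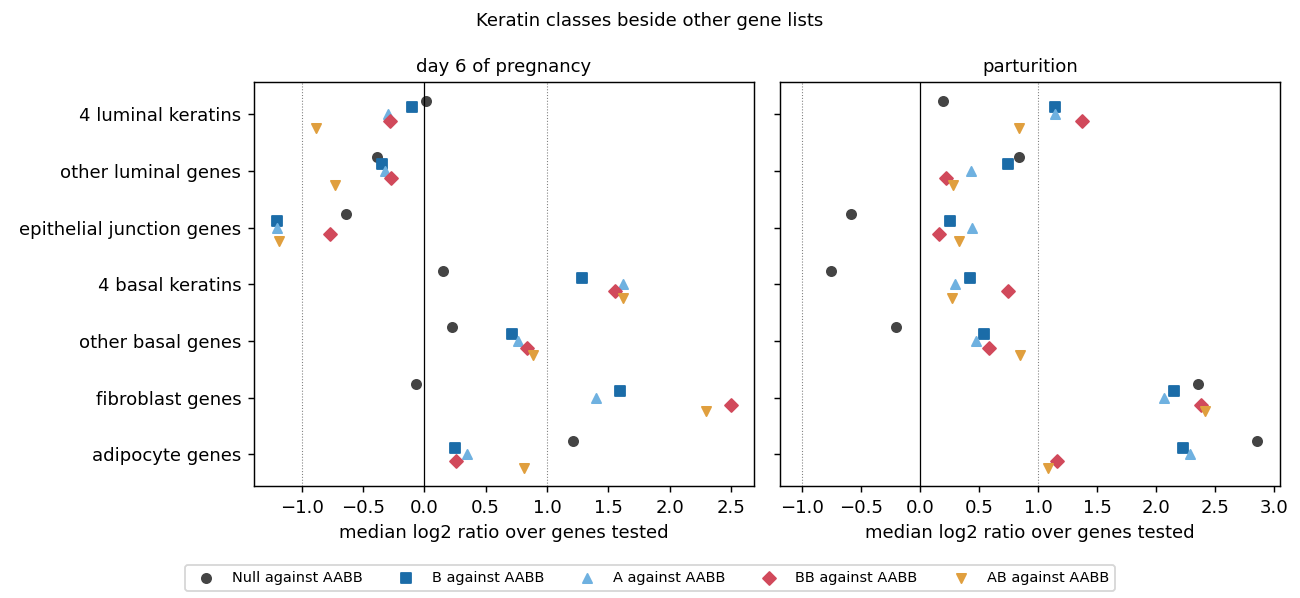
Median log2 ratio to AABB over the genes compared in each list, for Null, B, A, BB and AB, on day 6 of pregnancy (left) and at parturition (right); dotted lines mark 2-fold, and the points are ratios of means without error. On day 6 the basal keratins (1.29 to 1.62 in B, A, BB and AB) lie with the fibroblast genes (1.40 to 2.50) above 2-fold, while the luminal keratins lie at -0.88 to 0.01, and the luminal medians of B, A, BB and AB change sign when columns are scaled to epithelial junction genes, which moves the median of all genes up by 0.32 to 0.98.

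Skin also makes Krt5, Krt14, Krt15 and Krt17. Of 12 epidermal genes listed, 7 were below 1 FPKM in every column on day 6 and 6 at parturition. Krt1 and Lor, of the upper epidermis and, like Krt10, named after their values were seen, stayed at or below 0.132 and 0.294 scaled FPKM in every column of both stages, and Krt10 lay between 1.60 and 3.00. The list summed to 28.3 in Null, 73.8 in B, 83.1 in A, 79.6 in BB, 81.8 in AB and 43.2 in AABB on day 6, of which the galectin-7 gene Lgals7, known from stratified epithelia, made up 18.5 in Null, 63.5 in B, 71.9 in A, 72.1 in BB, 70.4 in AB and 28.0 in AABB. Lgals7 thus had higher levels in the same 4 columns as the basal keratins on day 6. At parturition the epidermal list summed to 36.4 in Null, 104 in B, 107 in A, 96.5 in BB, 119 in AB and 52.8 in AABB. Besides Lgals7, Sbsn reached 25.5 and Dmkn 12.8 in AB at parturition, and Calml3 reached 5.89 in B. The part of skin in the keratin levels was not tested. Of 13 hair follicle genes, 13 on day 6 and 12 at parturition were below 1 FPKM in every column, and the list summed to no more than 2.87 scaled FPKM in any column.

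Of 44 other keratin genes with numbered Krt symbols in the tables, 6 reached 1 FPKM in at least 2 columns on day 6 and 4 at parturition. Krt23, a type I keratin, stood at 3.28 in Null, 15.5 in B, 21.3 in A, 16.6 in BB, 11.0 in AB and 13.7 in AABB on day 6. Krt80, a type II keratin, stood at 1.49 in Null, 2.77 in B, 2.60 in A, 2.65 in BB, 5.18 in AB and 1.46 in AABB. Of the stress keratins, Krt6b did not pass 0.0190 scaled FPKM and Krt16 did not pass 0.0439 in any column, and Krt6a was highest in Null on day 6, at 2.04.

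Reads of close relatives limit some members. In GENCODE M21 transcripts, 26.9% of the 50-base stretches of Krt8 also occur in its pseudogene Krt8-ps, 14.4% of those of Krt14 occur in other genes (11.4% in Krt16), and 8.52% of those of Krt5 do, mostly in Krt6a. For Krt17 the share was 3.99%, for Krt18 0.720%, for Krt15 0.666%, and for Krt7 and Krt19 0%. How the authors assigned such reads is not stated, so the levels of Krt8, Krt14 and Krt5 are the less certain ones.

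The genes whose pattern came closest to the keratins were found by the root mean square difference of log2 ratios to AABB over 10 columns (5 genotypes at 2 stages), among 6182 genes with at least 5 FPKM in every column. For the mean of the 4 luminal keratins these were Id1 (0.28), Psmb8 (0.29) and Psme1 (0.31), and for that of the 4 basal keratins Cxcr7 (0.32), Tnpo1 (0.39) and Itgav (0.42). Among the members, Krt8 and Krt18 were nearest to each other (0.17), closer than Krt8 was to any of the 6182 genes (Fxyd3, 0.23, being next). Krt5 was nearest to Krt14 (0.41) and Krt17 to Krt5 (0.42) among members. Krt14 lay closest to the myoepithelial gene Cnn1 (0.30), Krt5 to Twsg1 (0.32), Krt17 to Cxcr7 (0.26) and Krt19 to Limk2 (0.21). Krt7 had no near member (Krt18, 1.00) and lay closest to Chst1 (0.31), and Krt15 was far from all, with Ace nearest (0.71). The 5 ratios of a stage share its AABB column, so these values describe likeness in 12 columns of means and carry no test.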

How the data were processed

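Mammary RNA of 31 samples (18 on day 6 of pregnancy, 13 at parturition) was extracted with TRIzol, poly(A)-selected and sequenced on an Illumina HiSeq, per the labels' protocols. CASAVA, TopHat and the mouse build mm9 are named in the submitters' processing notes, without versions, and the program that made the FPKM values and its annotation are not given in the sources used here. The authors deposited FPKM for 22609 genes in 1 table per stage, with 1 column of means per genotype. Of the values of at least 1 FPKM, 57.9% to 62.6% had recurring decimals in columns of 3 listed samples and 0.0961% to 0.173% in columns of 2.

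Scaling factors within a stage were medians of each column's ratios to the 6-column geometric mean, taken over genes of at least 1 FPKM in every column (11733 on day 6, 10864 at parturition). Genes of at least 1 FPKM in at least 2 columns were compared (13367 and 13061), as log2 ratios of scaled FPKM + 1 with 2-fold as the limit, and all 8 keratins passed. The limma fit that was planned for 1 column per sample could not be made on means. The steps were run on simulated data, copies of the AABB column without noise in which 200 genes per stage were changed well past 2-fold. That run checks the arithmetic only, because it holds no sample spread and no difference near the limit. Beside the 8 keratins, the genes named are at most 4 per list by highest mean FPKM, other keratins that passed the floor, and the 3 nearest in pattern, except where said. Alternatives were a pseudocount of 0.1, no filter, a floor of 5 FPKM, no scaling, scaling to epithelial junction genes, and other forms of the luminal to basal ratio. The members and lists were chosen with earlier results of these data known. Promoters are RefSeq's, build GRCm38.p6, and no mm9 coordinates were used. Python 3.11.15, numpy 2.4.6, pandas 2.3.3, scipy 1.17.1 and matplotlib 3.10.9 were used.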

Additional observations from a re-analysis of the deposited data

How the results depend on the processing

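With columns scaled to epithelial junction genes, the number of the 8 keratins past 2-fold against AABB was 2 in Null (0 with median-ratio scaling) and 6 in B (3) on day 6, and 1 in B (3) and 1 in A (3) at parturition. With FPKM as deposited it was 5 in B (3), 5 in BB (3) and 2 in AB (1) at parturition. The log2 difference in luminal to basal ratio between Null and AABB at parturition, 1.00 by sums and just under 2-fold, was 1.64 by geometric means and 1.11 without the most abundant member of each class. The cause was not tested. No keratin call changed side of the 2-fold limit with a pseudocount of 0.1, and no pair ratio did with FPKM + 1. A floor of 5 FPKM and the ratio without Krt15, both chosen after seeing the data, moved no keratin count or ratio call. The number of all genes past 2-fold moved by over 1.5 times in 15 of 20 comparisons with the pseudocount of 0.1, in 9 with the epithelial scaling and in 2 with the floor of 5. On day 6 the epithelial scaling gave 6078 genes in B, 6579 in A, 2099 in BB and 4697 in AB, against 1704, 1677, 1165 and 1576. No paired analysis was possible because the columns are genotype means and carry no replicate, and for the same reason no replicate could be left out. Depth is unknown and no value has an error.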
